A study of Mus musculus with 12 samples.

Results

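The 9 genes described here are markers and regulators of the progenitors that give rise to blood and to the endothelium, the cell layer that lines blood vessels. They were listed by name, with earlier results of these data known, and found in the deposited tables through their Ensembl identifiers, as 9 of 46517 annotated genes. All 9 passed the filter on low values, a level above 1 CPM (a unit of reads on a gene scaled to the size of its library) in 1 or more libraries, which left 15673 genes for testing. The study compared 12 RNA-seq libraries of mouse embryonic stem cells (ESCs) on a C57BL/6 background, in 4 groups of 3 libraries each. The wild type (WT) and the *Meteor* knockout (KO) both carried an *Eomes*-EGFP reporter, in which the green fluorescent protein is read out from the mesendoderm gene *Eomes*. *Meteor* is an enhancer upstream of *Eomes* that makes a long noncoding RNA, and in KO a piece of it with the start site of that RNA had been cut out with CRISPR-Cas9 and the cells grown from picked clones. The day 0 libraries came from undifferentiated ESCs that had been kept on mouse embryonic fibroblast feeders. The day 3 libraries came from embryoid bodies, cell aggregates formed in hanging drops of serum-containing medium to start cardiac differentiation. The labels name no other treatment and do not say how many KO clones were sequenced.

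In the early embryo, mesoderm cells that carry the VEGF receptor KDR give rise to both blood and endothelium. The transcription factor ETV2 starts this programme, and TAL1, LMO2 and GATA2 act in shared DNA-binding complexes that set up the first blood progenitors. FLT1 is a second receptor for VEGF, TEK is the receptor for angiopoietins, and PECAM1 and CDH5 hold neighbouring endothelial cells together. Mouse ESCs in culture also carry PECAM1 on their surface.

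The DNA just upstream of the start site is printed for *Kdr*, *Flt1* and *Etv2*, because they were lower in KO than in WT at day 3 under each of the processing alternatives tried. The windows are 250 bases long and are written 5′ to 3′ on the strand of the gene. They come from the RefSeq promoter table on GRCm38.p6, in which 6 of the 9 genes were matched. *Lmo2* was also lower under each of these alternatives, but was not among the matched genes. Capitals mark matches to 4 short motifs, searched on both strands. The first was GGAAG, the core of sites for ETS factors such as ETV2, which reads CTTCC on the other strand. The next was AGATAA, a site for GATA factors. The others were 2 E-boxes, the kind of site that TAL1 dimers bind, spelled CAGCTG in the symmetric form and, in the form named for TAL1 itself, CAGATG. No matches overlap in these windows. The *Kdr* window lies at chr5:75978456-75978705 on the minus strand, the *Flt1* window at chr5:147726012-147726261 on the minus strand, and the *Etv2* window at chr7:30635853-30636102 on the minus strand.
Kdr: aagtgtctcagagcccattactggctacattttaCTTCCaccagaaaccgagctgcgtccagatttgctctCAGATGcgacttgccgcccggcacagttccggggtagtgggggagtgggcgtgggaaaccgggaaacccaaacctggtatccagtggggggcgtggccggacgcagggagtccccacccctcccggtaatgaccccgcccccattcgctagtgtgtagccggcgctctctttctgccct
Flt1: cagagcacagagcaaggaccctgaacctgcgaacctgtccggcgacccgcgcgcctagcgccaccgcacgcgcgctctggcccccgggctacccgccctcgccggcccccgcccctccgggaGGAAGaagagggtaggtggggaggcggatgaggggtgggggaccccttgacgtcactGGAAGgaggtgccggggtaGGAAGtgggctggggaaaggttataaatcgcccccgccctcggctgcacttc
Etv2: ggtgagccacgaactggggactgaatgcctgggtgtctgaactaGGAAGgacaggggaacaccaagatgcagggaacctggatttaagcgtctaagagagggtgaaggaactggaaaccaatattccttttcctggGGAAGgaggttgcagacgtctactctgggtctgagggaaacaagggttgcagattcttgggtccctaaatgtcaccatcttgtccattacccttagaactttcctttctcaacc
GGAAG occurred 1 time in the *Kdr* window, 3 times in the *Flt1* window and 2 times in the *Etv2* window, and 64.1% of all 32851 windows in the table held it. Among the windows not printed, the second of the *Tal1* windows held it 1 time. The first *Tal1* window and the windows of *Tek* and *Gata2* did not hold it. The *Kdr* window also held CAGATG, which was present in 14.4% of all windows. AGATAA, present in 9.99% of windows, was found in the first of the *Tal1* windows at chr4:115056176-115056425. CAGCTG, present in 13.0% of windows, was found in none of the members' windows. The *Flt1* window was 70.4% G and C and held 23 CpG dinucleotides, against 61.6% and 16 for *Kdr* and 50% and 3 for *Etv2*. The median window in the table was 52.4% G and C and held 6 CpG dinucleotides.

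The libraries held 17455927 to 23910943 reads assigned to genes. The 2 annotated genes of the *Meteor* locus fit their labels: ENSMUSG00000103968 was at 1.35 to 5.84 CPM in the WT libraries and had no read in any KO library, and *Platr11* was at 0.513 to 6.12 CPM in WT and had at most 1 read in a KO library. *Upf3b*, an X-linked gene of nonsense-mediated decay, was at 45.5 to 55.9 CPM in WT and at no more than 0.661 CPM in KO, and its loss and that of *Meteor* cannot be told apart in these groups. WT day 3 replicate 3 stood apart. In it 775 of the 15673 tested genes were more than 2-fold above both other WT day 3 libraries, including 6 of the 9 members, against 37 to 324 genes for any other library. The calls and levels of the 9 genes that rest on it are given with and without it. In WT day 0 replicate 3, 184 genes stood above both partners, including 3 of the members, *Kdr*, *Flt1* and *Etv2*. The undifferentiated ESC markers summed to 2765 to 3297 CPM in WT and 3792 to 4164 CPM in KO at day 0, and to 670 to 1130 CPM and 1109 to 1196 CPM at day 3.

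In day 3 embryoid bodies 6 of these 9 were lower in KO and none was higher. The 6 were *Kdr*, *Flt1*, *Etv2*, *Lmo2*, *Cdh5* and *Gata2*. Among all tested genes 16.7% were lower and 14.3% higher by the same criterion, a p below 0.05 in the quasi-likelihood test of edgeR after adjustment by Benjamini-Hochberg over all tested genes. SE stands for the standard error of a log2 fold change. The same 6 genes had every KO library below every WT library, which was so for 23.0% of all tested genes, and none had the reverse order (20.8%). The median log2 fold change of the 9 genes was -2.65, against 0.00 for all tested genes. That median is the value of *Gata2*, which was -0.87 without WT day 3 replicate 3. In the fit without that library the middle value of the 9 was that of *Etv2*, at -1.49. These are bulk libraries, so fewer cells of a type and less RNA per cell cannot be told apart. Without WT day 3 replicate 3, 5 of the 9 were lower, namely these genes except *Gata2*, and *Tek* was higher, where 10.9% of tested genes were lower and 11.3% higher. With all 4 libraries numbered 3 left out, 4 were lower (7.67% of tested genes). The spread between libraries is that between these samples, since the labels do not say that they came from separate cultures.

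**Figure D1:**
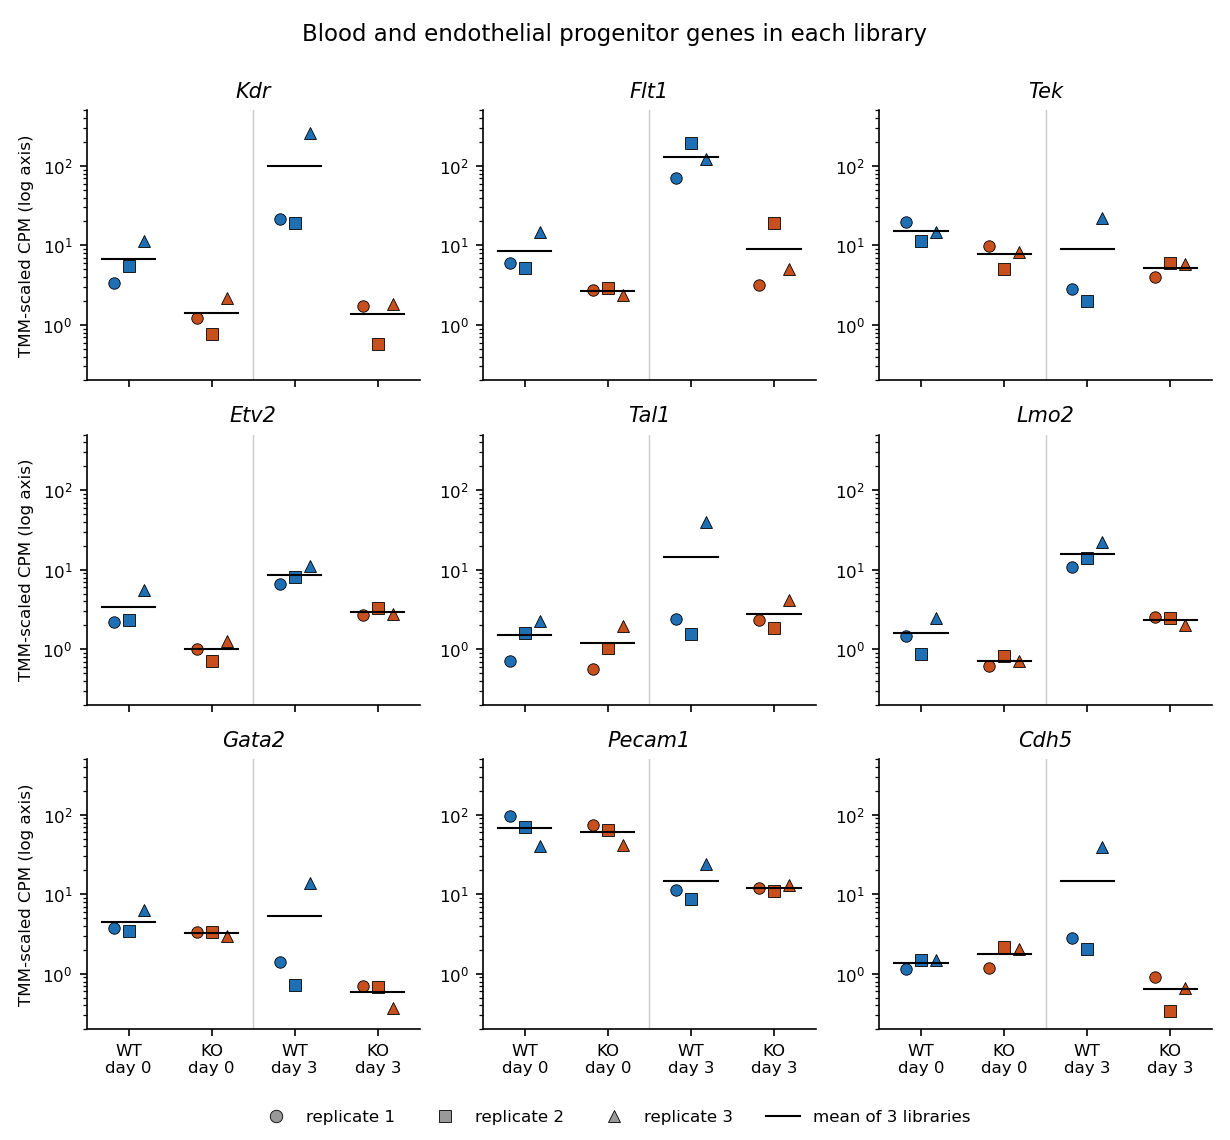
Level of each of the 9 genes in the 12 libraries, in TMM-scaled CPM on a log axis, with WT in blue and KO in red at day 0 and day 3, circles, squares and triangles for replicates 1, 2 and 3 and a line at the group mean. *Kdr* reached 258 CPM in WT day 3 replicate 3 and 0.569 to 1.83 CPM in the KO day 3 libraries, while *Pecam1* was at 40.2 to 95.3 CPM in all day 0 libraries.

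*Kdr* (ENSMUSG00000062960, chromosome 5, 75932827 to 75978458, minus strand) encodes VEGF receptor 2, also called Flk1, the receptor by which blood and endothelial precursors are recognised. At day 3 it had 21.8, 19.2 and 258 CPM in WT replicates 1 to 3 and 1.75, 0.569 and 1.83 CPM in KO. All 3 KO libraries were far below the lowest WT library, and the spread within WT came from replicate 3. The log2 fold change of KO over WT was -5.48 (SE 0.69, edgeR adjusted p = 0.000459), which is 44.6-fold lower. Without WT day 3 replicate 3 it was -4.28 (edgeR adjusted p = 0.000199), and over all 22 alternatives the adjusted p ranged from 3.08e-12 to 0.00571.

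In ESCs the *Kdr* level was already lower in KO, with 3.33, 5.48 and 11.4 CPM in WT against 1.23, 0.772 and 2.2 CPM in KO. The 2 groups did not overlap, at a log2 fold change of -2.35 (SE 0.70, edgeR adjusted p = 0.0396). This call was lost when any 1 of the day 0 libraries or KO day 3 replicate 2 was left out, 7 of the 12 such fits, and over all alternatives the adjusted p ranged from 0.000446 to 0.202. Without WT day 0 replicate 3 the change was -2.78 (edgeR adjusted p = 0.0552), and without the replicate block it was -2.25 (adjusted p = 0.162). With the replicate numbers as a block within each day it was -2.24 (edgeR adjusted p = 0.0128), and in DESeq2 -2.28 (adjusted p = 0.0106). Of the 22 alternatives 12 kept the call and 10 lost it.

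*Flt1* (ENSMUSG00000029648, chromosome 5, 147561604 to 147726011, minus strand) encodes VEGF receptor 1, which binds VEGF tightly and also exists as a soluble form. At day 3 it had 69.6, 196 and 123 CPM in WT and 3.15, 18.9 and 5.12 CPM in KO. Every WT library lay above every KO library, and replicate 3 was not the highest of the WT libraries, unlike for the other 8 genes. The log2 fold change was -3.96 (SE 0.53, edgeR adjusted p = 0.0006), 15.5-fold lower in KO, and -3.97 without WT day 3 replicate 3 (adjusted p = 0.00159). Over the alternatives the adjusted p ranged from 8.25e-09 to 0.0137. At day 0 *Flt1* had 6.01, 5.22 and 14.6 CPM in WT and 2.75, 2.92 and 2.4 CPM in KO. The groups did not overlap, but the log2 fold change of -1.71 (SE 0.57) did not pass the test (edgeR adjusted p = 0.0623, 0.00551 to 0.405 over the alternatives). It passed without WT day 0 replicate 2 and without KO day 3 replicate 2, and with the replicate numbers as a block within each day (adjusted p = 0.00827).

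*Tek* (ENSMUSG00000006386, chromosome 4, 94739289 to 94874976, plus strand) encodes TIE2, the angiopoietin receptor of endothelial and some blood stem cells. It did not share the pattern of the VEGF receptors. At day 3 it had 2.84, 2.02 and 22.0 CPM in WT and 3.95, 5.97 and 5.83 CPM in KO, so that the KO libraries lay between WT replicates 1 and 2 and WT replicate 3. The log2 fold change was -0.35 (SE 0.67, edgeR adjusted p = 0.727). Without WT day 3 replicate 3 it was +1.14, higher in KO (edgeR adjusted p = 0.0391), and the adjusted p ranged from 0.0391 to 0.936 over the alternatives. At day 0 *Tek* had 19.9, 11.3 and 14.6 CPM in WT and 9.75, 5.02 and 8.33 CPM in KO, with no overlap and a log2 fold change of -1.03 (SE 0.62) that did not pass (edgeR adjusted p = 0.277, 0.000772 to 0.632 over the alternatives), though it passed without WT day 3 replicate 3.

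The 4 transcription factors were at no more than 14.1 CPM in every library other than WT day 3 replicate 3. *Etv2* (ENSMUSG00000006311, chromosome 7, 30633616 to 30635852, minus strand), the ETS factor needed for the first blood and endothelial cells, had 6.72, 8.14 and 11.3 CPM in WT and 2.70, 3.36 and 2.79 CPM in KO at day 3. The WT libraries lay close together and all above KO. The change was -1.51 on the log2 scale (SE 0.29, edgeR adjusted p = 0.00372), 2.86-fold lower in KO, and the adjusted p ranged from 4.1e-05 to 0.029 over the alternatives. At day 0 *Etv2* had 2.18, 2.35 and 5.65 CPM in WT and 1.01, 0.717 and 1.28 CPM in KO. It was 3.23-fold lower in KO there, a log2 fold change of -1.69 (SE 0.32, edgeR adjusted p = 0.0056). With the 4 libraries numbered 3 left out the change at day 0 was -1.38 (adjusted p = 0.0583), the largest adjusted p over the alternatives, of which the smallest was 8.78e-05.

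*Lmo2* (ENSMUSG00000032698, chromosome 2, 103957986 to 103981878, plus strand) encodes an adaptor without DNA binding of its own that bridges TAL1 and GATA factors. At day 3 it had 10.9, 14.1 and 22.6 CPM in WT and 2.55, 2.50 and 2.04 CPM in KO. The KO values were nearly equal to each other, and all were well below the lowest WT value. On the log2 scale the change was -2.68 (SE 0.32, edgeR adjusted p = 0.000383), 6.39-fold lower, and -2.45 without WT day 3 replicate 3 (adjusted p = 0.00138), with a range of 4.15e-13 to 0.00871 over the alternatives. At day 0 the levels were 1.47, 0.887 and 2.48 CPM in WT and 0.616, 0.827 and 0.72 CPM in KO. These groups did not overlap, but 2 of the libraries were close, and the log2 fold change of -1.12 (SE 0.38) did not pass the test (edgeR adjusted p = 0.0665, 0.0309 to 0.346 over the alternatives), though it passed without WT day 0 replicate 2.

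*Tal1* (ENSMUSG00000028717, chromosome 4, 115056426 to 115071755, plus strand), the helix-loop-helix factor also called SCL, had 2.38, 1.54 and 39.7 CPM in WT and 2.35, 1.88 and 4.20 CPM in KO at day 3. Apart from WT replicate 3 the WT and KO libraries were at like levels and overlapped. On this scale the change was -1.44 (SE 0.72, edgeR adjusted p = 0.158), +0.10 without WT day 3 replicate 3 (adjusted p = 0.885) and -2.12 without WT day 3 replicate 2 (adjusted p = 0.0303), and the range over the alternatives was 0.0303 to 0.918. At day 0 *Tal1* had 0.71, 1.62 and 2.27 CPM in WT and 0.56, 1.05 and 1.99 CPM in KO, a log2 fold change of -0.45 (edgeR adjusted p = 0.746).

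*Gata2* (ENSMUSG00000015053, chromosome 6, 88193891 to 88207032, plus strand) encodes a zinc finger factor that maintains blood stem and progenitor cells. At day 3 it had 1.40, 0.722 and 14.0 CPM in WT and 0.70, 0.68 and 0.375 CPM in KO. The groups did not overlap, but WT replicate 2 was only just above KO replicate 1. KO differed by -2.65 on the log2 scale (SE 0.90, edgeR adjusted p = 0.0479). The call was lost in 10 of the 12 fits that left out 1 library, the exceptions being those without WT day 3 replicate 1 or 2, and without WT day 3 replicate 3 the change was -0.87 (adjusted p = 0.203). The adjusted p ranged from 0.00467 to 0.35 over the alternatives. At day 0 *Gata2* had 3.77, 3.44 and 6.29 CPM in WT and 3.36, 3.36 and 3.01 CPM in KO, a log2 fold change of -0.33 (edgeR adjusted p = 0.794).

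The 2 junction proteins differed from each other. *Cdh5* (ENSMUSG00000031871, chromosome 8, 104101625 to 104144511, plus strand) encodes VE-cadherin, the adhesion protein of endothelial junctions. It had 2.80, 2.07 and 39.4 CPM in WT and 0.90, 0.341 and 0.67 CPM in KO at day 3. All KO libraries lay below all WT libraries. The log2 fold change was -3.83 (SE 0.95, edgeR adjusted p = 0.0131), 14.2-fold lower, and -1.95 without WT day 3 replicate 3 (adjusted p = 0.0113). The call was lost without KO day 3 replicate 2 (adjusted p = 0.0501), without KO day 3 replicate 3 (adjusted p = 0.0943) and with the libraries numbered 3 left out (adjusted p = 0.0603), and the range over the alternatives was 7.95e-06 to 0.0943. At day 0 *Cdh5* had 1.15, 1.51 and 1.48 CPM in WT and 1.18, 2.15 and 2.04 CPM in KO, and the log2 fold change of +0.36 did not pass (edgeR adjusted p = 0.816).

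*Pecam1* (ENSMUSG00000020717, chromosome 11, 106654217 to 106750628, minus strand) encodes CD31, an adhesion protein of endothelium, platelets and white blood cells. It had 95.3, 70.5 and 40.2 CPM in WT and 75.1, 63.9 and 41.4 CPM in KO at day 0. At day 3 the values were 11.3, 8.62 and 23.9 CPM in WT and 12.2, 11.1 and 13.2 CPM in KO. WT and KO overlapped on both days. The log2 changes of KO over WT were -0.18 (SE 0.38, edgeR adjusted p = 0.781) at day 0 and -0.26 (SE 0.40, adjusted p = 0.659) at day 3, the latter +0.54 without WT day 3 replicate 3 (adjusted p = 0.181, with a range of 0.181 to 0.888 over the alternatives).

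In ESCs, 2 of the 9 genes, *Kdr* and *Etv2*, were lower in KO by the test and none was higher, where 10.9% of all tested genes were lower and 9.56% higher. The KO libraries lay below all WT libraries for 6 of the 9, namely *Kdr*, *Flt1*, *Tek*, *Etv2*, *Lmo2* and *Gata2*, which was so for 17.4% of all tested genes, and none had the reverse order (16.8%). The median log2 fold change of the 9 was -1.03, against -0.01 for all tested genes. With the replicate numbers as a block within each day 3 of the 9 were lower, *Flt1* being the third, and 18.0% of all tested genes. Without WT day 0 replicate 3 *Etv2* alone remained below the threshold (5.94% of tested genes were lower there), and with the libraries numbered 3 left out none of the 9 did (3.12% of tested genes).

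**Figure D2:**
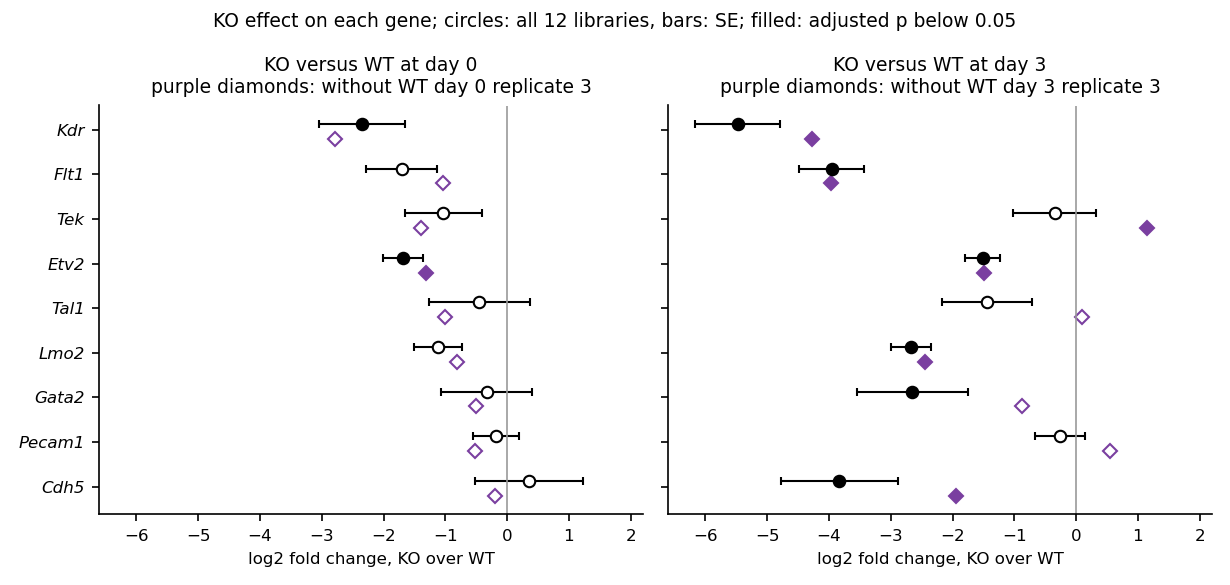
Log2 fold change of KO over WT for each gene at day 0 (left) and day 3 (right), with circles for the fit to all 12 libraries and bars of 1 standard error, and purple diamonds for the fit without WT replicate 3 of that day, drawn without error bars. Filled symbols have an adjusted p below 0.05, and at day 3 *Kdr*, *Flt1*, *Etv2*, *Lmo2* and *Cdh5* stay filled and below 0 in both fits while *Tek* moves from -0.35 to +1.14.

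Between ESCs and day 3 embryoid bodies of the WT, 6 of the 9 genes rose and 1 fell, against 30.7% and 25.5% of all tested genes. *Flt1* rose most, 13.6-fold (log2 fold change 3.77, SE 0.53, edgeR adjusted p = 0.00024). *Lmo2* rose 9.79-fold (3.29, SE 0.34, adjusted p = 3.7e-05) and *Kdr* rose 9.06-fold (3.18, SE 0.58, adjusted p = 0.0012). *Etv2* rose by 1.42 on the log2 scale (SE 0.29, edgeR adjusted p = 0.00212). These 4 genes kept their call in every alternative. *Kdr* without WT day 3 replicate 3 rose by 2.05 on the log2 scale (adjusted p = 0.0014, with a range of 1.46e-05 to 0.0109 over the alternatives).

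The WT rises of *Cdh5* and *Tal1* rested on single libraries. *Cdh5* changed by 2.66 (SE 0.88, edgeR adjusted p = 0.0257) and *Tal1* by 2.38 (SE 0.77, adjusted p = 0.0228) on the log2 scale. Each call was lost without WT day 0 replicate 1, WT day 0 replicate 3 or WT day 3 replicate 3. Without the last of these libraries the changes were 0.84 (adjusted p = 0.111) and 0.78 (adjusted p = 0.141), and over the alternatives the adjusted p reached 0.201 for *Cdh5* and 0.251 for *Tal1*. Every WT day 3 value of *Cdh5* was above every WT day 0 value, whereas the *Tal1* values of the 2 days overlapped. In all, 5 of the 9 genes had all WT day 3 libraries above all WT day 0 libraries (31.9% of tested genes).

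*Pecam1* fell between the days in both genotypes, 4.64-fold in WT (log2 fold change -2.21, SE 0.41, edgeR adjusted p = 0.00132) and by 2.29 on the log2 scale in KO (SE 0.41, adjusted p = 0.000882). *Tek* and *Gata2* did not pass in WT, with log2 fold changes of -1.19 (edgeR adjusted p = 0.149) and -0.21 (adjusted p = 0.826). Without WT day 3 replicate 3 both were lower at day 3, *Tek* by -2.64 (adjusted p = 0.000272, the lower end of a range that reached 0.464) and *Gata2* by -2.08 (adjusted p = 0.00277, the lower end of a range that reached 0.919). That fit then called 4 of the 9 higher and 3 lower, against 25.7% and 25.6% of tested genes.

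In KO, 3 of the 9 genes rose between the days and 2 fell, against 29.4% and 27.2% of all tested genes. *Etv2* rose by 1.59 (SE 0.32, edgeR adjusted p = 0.00197) and *Lmo2* by 1.73 (SE 0.37, adjusted p = 0.00272) on the log2 scale, both in every alternative. *Flt1* rose by 1.52 (SE 0.57, edgeR adjusted p = 0.0443), which was lost in 7 of the 12 fits that left out 1 library (WT day 0 replicate 1, any WT day 3 library, KO day 0 replicates 2 and 3 and KO day 3 replicate 2) and reached an adjusted p of 0.287 without KO day 3 replicate 2, the library with the highest KO value. *Gata2* fell by 2.53 (SE 0.87, edgeR adjusted p = 0.0301), a call lost without KO day 0 replicate 1, KO day 0 replicate 2 or KO day 3 replicate 3, where the adjusted p reached 0.125. *Kdr* had a log2 fold change of +0.05 (SE 0.81, edgeR adjusted p = 0.962), and its KO libraries of the 2 days overlapped. *Tek*, *Tal1* and *Cdh5* did not pass, at -0.50, +1.39 and -1.53, but without WT day 3 replicate 3 *Tal1* was higher (1.26, edgeR adjusted p = 0.0134, reaching 0.424 over the alternatives) and *Cdh5* lower (-1.49, adjusted p = 0.00929, reaching 0.518). The KO day 3 libraries lay above all KO day 0 libraries for 3 of the 9 genes and below them for 3 (32.5% and 30.1% of tested genes).

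**Figure D3:**
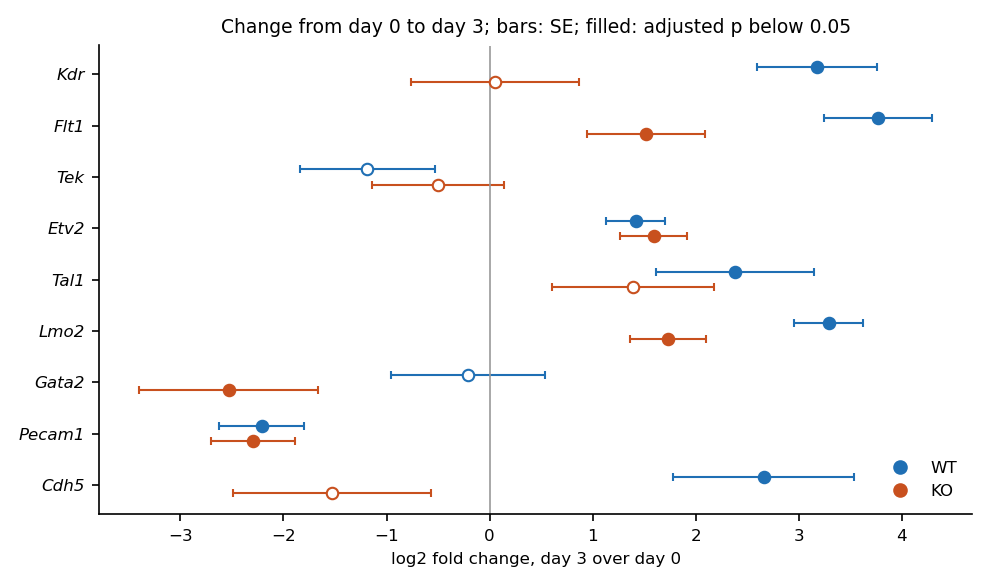
Log2 fold change of day 3 over day 0 for each gene in WT (blue) and KO (red), with bars of 1 standard error and filled symbols for an adjusted p below 0.05. *Kdr* is at 3.18 in WT and 0.05 in KO, *Etv2* at 1.42 and 1.59, and *Pecam1* at -2.21 and -2.29.

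Whether the KO effect differed between the days was tested with the interaction term, the change of KO over WT at day 3 minus that at day 0. None of the 9 genes passed in the edgeR fit with the replicate number as a block across both days, where 7.34% of all tested genes were lower and 8.21% higher. Of the 9, 4 were at an unadjusted p below 0.05, namely *Cdh5* (-4.19, SE 1.29, adjusted p = 0.0536), *Kdr* (-3.13, SE 1.01, adjusted p = 0.0627), *Lmo2* (-1.56, SE 0.50, adjusted p = 0.0622) and *Flt1* (-2.25, SE 0.76, adjusted p = 0.071). Other fits called some of them: DESeq2 called *Kdr*, *Lmo2* and *Cdh5*, limma-voom called *Flt1*, and edgeR with the replicate numbers as a block within each day called all 4, where 9.23%, 7.22% and 15.0% of tested genes were lower. In edgeR the call was gained by *Kdr* when WT day 0 replicate 2, any 1 WT day 3 library or KO day 3 replicate 1 was left out, by *Cdh5* when any 1 WT day 3 library or KO day 3 replicate 1 was left out, by *Flt1* without WT day 0 replicate 3 or KO day 3 replicate 2, and by *Lmo2* without WT day 3 replicate 1. *Tek* had an interaction of +0.69 (adjusted p = 0.663), and of +2.14 without WT day 3 replicate 3 (adjusted p = 0.0124, with a range of 0.0124 to 0.96 over the alternatives). Without the replicate block *Cdh5* passed (-4.88, adjusted p = 0.0348, where 6.13% of tested genes were lower). *Etv2* had an interaction of +0.18 (edgeR adjusted p = 0.822) and *Pecam1* one of -0.08 (adjusted p = 0.946), with standard errors of 0.42 and 0.55.

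Levels of different genes were compared per kilobase of exon. In WT ESCs *Pecam1* was highest at 11 ± 4.44 CPM per kilobase (SD, n = 3), with no overlap with the next genes, *Etv2* at 3.24 ± 1.87 and *Tek* at 3.24 ± 0.927, which could not be told apart. The other 6 genes were between 0.328 and 0.834 CPM per kilobase. In WT embryoid bodies *Kdr* (11 ± 15.2), *Flt1* (9.59 ± 4.70), *Etv2* (8.31 ± 2.23) and *Lmo2* (7.32 ± 2.81) were the highest 4, with overlapping libraries, and *Gata2* was lowest at 0.996 ± 1.39. The first place of *Kdr* rested on replicate 3, with 2.41, 2.12 and 28.5 CPM per kilobase in replicates 1 to 3. Over replicates 1 and 2 alone the means were 9.84 for *Flt1*, 7.09 for *Etv2*, 5.75 for *Lmo2* and 2.27 for *Kdr*, and *Gata2* was again lowest at 0.197. In KO embryoid bodies *Etv2* was highest at 2.81 ± 0.339 CPM per kilobase, above *Pecam1* at 1.96 ± 0.168 without overlap. *Tek* (1.11 ± 0.239) and *Lmo2* (1.09 ± 0.13) followed and overlapped, and *Kdr* (0.153 ± 0.078), *Cdh5* (0.151 ± 0.067) and *Gata2* (0.108 ± 0.034) were lowest and overlapped. In KO ESCs *Pecam1* was highest at 9.66 ± 2.75 CPM per kilobase and *Kdr* lowest at 0.155 ± 0.08.

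WT day 3 replicate 3 was high in some of the 9 genes and not in others. The ratio of its CPM to the mean of WT replicates 1 and 2 was 20.3 for *Tal1*, 16.2 for *Cdh5*, 13.2 for *Gata2*, 12.6 for *Kdr* and 9.04 for *Tek*. It was 2.39 for *Pecam1*, 1.82 for *Lmo2*, 1.52 for *Etv2* and 0.925 for *Flt1*. The same library was more than 2-fold above both partners in 19 of 25 other blood and endothelial transcription factors, 14 of 17 other endothelial surface and junction genes and 12 of 14 lateral and cardiac mesoderm genes, with median ratios of 5.28, 3.88 and 9.04. Of 11 other receptors and co-receptors 5 did so, with a median ratio of 2.05, as did 4 of 7 VEGF and angiopoietin ligands (2.44) and 4 of 8 partners of LMO2 and TAL1 (3.55). The undifferentiated ESC markers had a median ratio of 1.01, with 1 of 8 more than 2-fold above, but their summed level was lower in this library, at 670 CPM against 1118 and 1130 CPM in replicates 1 and 2. All tested genes had a median ratio of 0.996, with 4.95% above. KO day 3 replicate 3 stood above both partners in 37 tested genes and in none of these lists.

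The wider pathway was followed in lists of genes that take part in it, with the 9 members left out. The lists were chosen with earlier results of these data known, and some list genes passed the filter only through the WT day 3 libraries, so that the counts are a description. Of all tested genes 16.7% were lower and 14.3% higher in KO at day 3, or 10.9% and 11.3% without WT day 3 replicate 3. Of the other receptors and co-receptors, 8 of 11 tested were lower in KO at day 3 and none was higher, with a median log2 fold change of -3.11. *Aplnr*, the apelin receptor of early mesoderm, had 107, 101.3 and 133 CPM in WT and 0.65, 0.171 and 0.957 CPM in KO, a log2 fold change of -7.80 (edgeR adjusted p = 9.24e-05). *Nrp2*, a VEGF co-receptor, had 24.7, 37.3 and 118 CPM against 1.5, 1.82 and 2.0 CPM (-4.91, adjusted p = 7.34e-05). *Nrp1*, a co-receptor of KDR, had 5.92, 6.02 and 137 CPM against 0.50, 0.227 and 0.666 CPM (-6.08, adjusted p = 0.00411, and -3.86 without WT day 3 replicate 3). All KO libraries of these 3 genes lay below all WT libraries. Without that WT library 7 of the 11 were lower.

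Of the other transcription factors of blood and endothelium, 12 of 25 tested were lower in KO at day 3 and 2 higher, with a median of -2.27, and 8 of 20 were lower and none higher without WT day 3 replicate 3. The shares of all tested genes were 16.7% lower and 14.3% higher, or 10.9% and 11.3% without that library. *Sox17*, a factor of endothelium and endoderm, had 14.8, 11.2 and 43.2 CPM in WT and 0.30, 0.569 and 0.208 CPM in KO (-5.95, edgeR adjusted p = 0.000203). *Cdx2*, a factor of posterior mesoderm and trophoblast, had 4.38, 3.66 and 11.1 CPM against 0.15, 0.227 and 0.25 CPM (-4.94, adjusted p = 0.000656). WT and KO did not overlap in either gene. Of the 8 partners of LMO2 and TAL1, some of which are also in the list of factors, 2 were lower, *Runx1* (-2.09, adjusted p = 0.0275) and *Tcf12* (-0.36, adjusted p = 0.0401), and 2 were higher, *Ldb1* (0.27, adjusted p = 0.0499) and *Tcf3* (0.25, adjusted p = 0.0279). None of the partners passed without WT day 3 replicate 3.

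Of the other endothelial surface and junction genes, 5 of 17 tested were lower in KO at day 3 and none higher, with a median of -0.98, where 16.7% of all tested genes were lower and 14.3% higher. Without WT day 3 replicate 3 the split was 2 lower and 2 higher of 14, near the 10.9% and 11.3% of all tested genes. *Cd93*, a lectin of endothelial cells, had 1.07, 1.35 and 10.6 CPM in WT and 0.30, 0.227 and 0.416 CPM in KO (-3.36, edgeR adjusted p = 0.00965). *Rasgrp3*, a signalling protein of endothelium, had 16.9, 10.8 and 36.3 CPM against 2.75, 1.02 and 2.41 CPM (-3.27, adjusted p = 0.000676). Both had all KO libraries below all WT libraries. Of 10 early blood genes only 3 passed the filter on low values. *Hbb-bh1*, an embryonic globin, had 0.933, 0.481 and 11.5 CPM in WT day 3 libraries and 1 read in all KO day 3 libraries together. *Itga2b*, or CD41, a marker of the first blood progenitors, had 1.73, 1.73 and 17.0 CPM against 0.55, 0.398 and 0.708 CPM (-3.23, adjusted p = 0.0111, and -1.59 without WT day 3 replicate 3).

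Of 7 ligands tested at day 3, *Angpt1* alone was lower (0.187, 0.578 and 1.72 CPM in WT and 0.15, 0.227 and 0.125 CPM in KO, log2 fold change -2.10, edgeR adjusted p = 0.0261) and *Vegfb* alone was higher (30.2, 44.8 and 38.2 CPM in WT and 64.4, 76.1 and 68.2 CPM in KO, log2 fold change 0.88, adjusted p = 0.00718), and their median was -0.24. Among all tested genes 16.7% were lower and 14.3% higher, so that the counts of the ligands were near these shares. The WT and KO values of *Angpt1* overlapped. When WT day 3 replicate 3 was left out 5 ligands passed the filter, *Angpt1* not among them, and 0 were lower and 1 higher. In that fit 10.9% of all tested genes were lower and 11.3% higher. Of the genes of lateral and cardiac mesoderm, 12 of 14 were lower and none higher, with a median of -4.10, or -4.03 with *Nkx2-5*, which had no read in KO, set at 3 reads over the group. *Mesp1*, an early mesoderm factor, had 21, 28.1 and 28.5 CPM in WT and 0.05, 0.114 and 0.083 CPM in KO. Without WT day 3 replicate 3, 10 of 13 were lower and 1 higher.

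**Figure D4:**
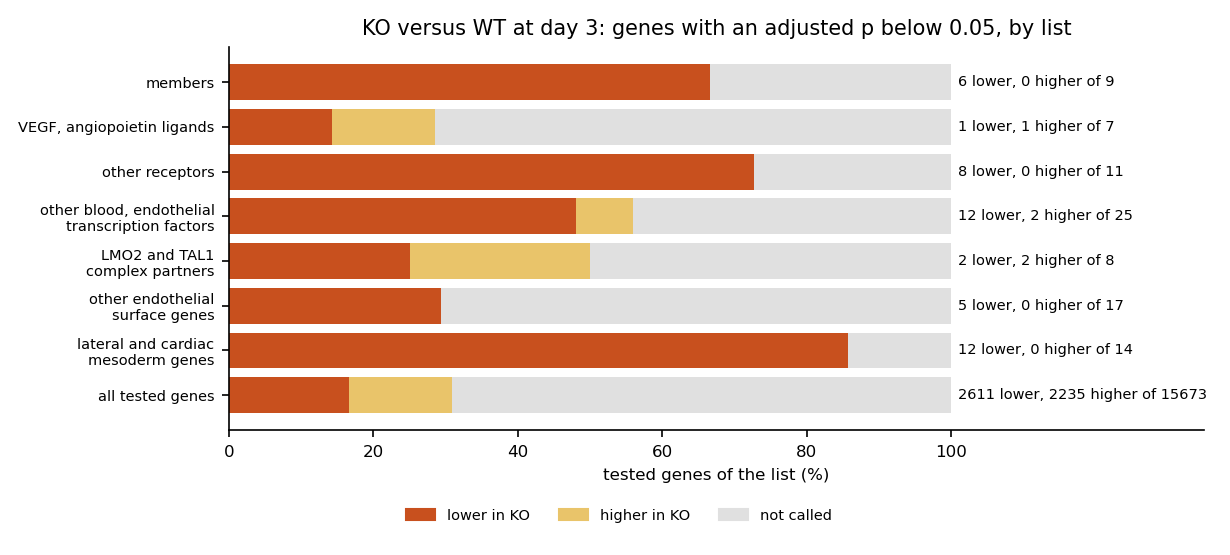
Share of the tested genes of each list that were lower in KO (red), higher in KO (yellow) or not called (grey) at day 3, as stacked bars on an axis in percent, with the counts beside each bar and an adjusted p below 0.05 as the call. Of the members 6 of 9 were lower, of the other receptors 8 of 11, of the lateral and cardiac mesoderm genes 12 of 14 and of all tested genes 2611 of 15673.

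At day 0 the lists were read against the 10.9% of all tested genes that were lower in KO and the 9.56% that were higher. Of the other receptors, 2 of 11 were lower, *Nrp2* (45.6, 36.2 and 57.2 CPM in WT and 12.8, 9.04 and 15.0 CPM in KO, log2 fold change -1.92, edgeR adjusted p = 0.00409) and *Aplnr*, which had 0.273, 0.157 and 4.86 CPM in WT and 2 reads in all KO libraries together. Of the ligands, 2 of 7 were lower, *Angpt1* (-2.27, adjusted p = 0.0286) and *Pgf* (-1.79, adjusted p = 0.00843), which encodes placental growth factor, a ligand of FLT1. *Angpt1* was near the floor, at 0.601 to 1.00 CPM in WT and with 9 reads in all KO libraries together. With the libraries numbered 3 left out, none of the 5 ligands in the fit was lower. Of the other transcription factors, 2 of 25 were lower, *Cdx2* (-2.13, adjusted p = 0.0441) and *Tcf3* (-0.38, adjusted p = 0.00652). *Cdx2* had 0.382, 0.783 and 5.07 CPM in WT and 0.112, 0.551 and 0.409 CPM in KO, and its call and that of *Aplnr* were lost without WT day 0 replicate 3. Of the 17 surface genes *Ramp2* was lower (-2.24, adjusted p = 0.00415) and *Nos3*, the endothelial nitric oxide synthase, was higher (1.97, adjusted p = 0.0252). Of the 14 mesoderm genes *Msx1* was lower (-1.95, adjusted p = 0.0293) and *Bmp4*, a ligand that induces blood-forming mesoderm, was higher (2.48, adjusted p = 0.0107). The summed level of these mesoderm genes was 397 to 491 CPM in KO and 183 to 204 CPM in WT, while their median log2 fold change was -0.14. The fit without WT day 3 replicate 3, in which 11.9% of tested genes were lower and 10.7% higher at day 0, called 1 ligand lower and 1 higher of 5, 3 factors lower and 2 higher of 20, 2 surface genes lower and 3 higher of 14, and 2 mesoderm genes lower and 2 higher of 13.

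Over the 3 days in WT, 4 of the 11 other receptors rose and 2 fell, 12 of the 25 other transcription factors rose and 1 fell, and 5 of the 17 surface genes rose and 1 fell, where 30.7% of all tested genes rose and 25.5% fell. These counts rested in part on WT day 3 replicate 3. Without it 3 of 11 receptors rose and 2 fell, 6 of 20 factors rose and 2 fell, and 4 of 14 surface genes rose and 5 fell, against 25.7% and 25.6% of tested genes. *Aplnr* rose by 6.49 (edgeR adjusted p = 2.82e-05), *Sox17* by 4.90 (adjusted p = 9.47e-05) and *Cd93* by 4.06 (adjusted p = 0.00241) on the log2 scale. In KO, 2 of the receptors rose and 6 fell, 3 of the factors rose and 6 fell, and 3 of the surface genes rose and 5 fell, where 29.4% of all tested genes rose and 27.2% fell. The KO counts without that library were 3 up and 7 down of 11 receptors, 2 up and 9 down of 20 factors and 4 up and 6 down of 14 surface genes, against 29.8% and 28.9% of tested genes. *Nrp1* fell by 4.69 (adjusted p = 0.00633), *Robo4* by 3.55 (adjusted p = 4.19e-05) and *Nos3* by 3.14 (adjusted p = 0.000881) on the log2 scale in KO. *Ramp2*, a partner of the adrenomedullin receptor, rose in both genotypes, by 2.2 in WT (adjusted p = 0.000377) and 3.82 in KO (adjusted p = 2.6e-05).

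*Kdr* lies on chromosome 5 next to the receptor kinase genes *Pdgfra* (75152292 to 75198215) and *Kit* (75574916 to 75656722), with gaps of 376.7 and 276.1 kb and 0 other protein-coding genes between them. At day 3 *Pdgfra*, a receptor of mesoderm cells, had 37.1, 37.9 and 81.4 CPM in WT and 2.75, 3.64 and 3.29 CPM in KO (log2 fold change -4.00, edgeR adjusted p = 8.81e-05). *Kit*, the stem cell factor receptor, had 70.6, 77.1 and 81.5 CPM in WT and 25.9, 39.7 and 33.6 CPM in KO (-1.21, adjusted p = 0.00234). All 3 neighbours were lower in KO at day 3, with no overlap of the groups, and the changes ran from -1.21 for *Kit* to -5.48 for *Kdr*. At day 0 *Pdgfra* (0.33, adjusted p = 0.531) and *Kit* (0.24, adjusted p = 0.456) did not pass and *Kdr* was at -2.35. Between the days in WT *Pdgfra* rose by 3.54 on the log2 scale (adjusted p = 2.8e-05) and *Kit* did not pass (0.27, adjusted p = 0.292).

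Markers of other cells that the cultures could hold were summed in each library. Some of them are also in the pathway lists above, so the sums partly repeat those results. These are all the markers of mature endothelium, *Cdx2* and *Hand1* of trophoblast, and *Sox7*, *Sox17* and *Gata6* of visceral and primitive endoderm. *Ptprc* and *Spi1* of macrophages and mature blood are shared as well. Of 12 fibroblast feeder markers all had reads, and their sums were 89.8 to 283 CPM in WT and 136 to 388 CPM in KO at day 0, and 48.0 to 77.0 and 44.9 to 89.6 CPM at day 3, overlapping on both days. Of 12 trophoblast markers, 10 had reads and *Tpbpa* and *Prl3d1* were at 0. Their sums were 90.1 to 140 CPM in WT and 44.4 to 84.4 CPM in KO at day 0, and 96.7 to 373 and 35.7 to 43.6 CPM at day 3, so that the KO sums lay below the WT sums on both days. The visceral and primitive endoderm markers, some of which are expressed in endothelium too, summed to 157 to 444 CPM in WT and 57.0 to 154 CPM in KO at day 3 and stood more than 2-fold above both partners in WT replicate 3 for 9 of 12. The markers of mature endothelium summed to 12.3 to 49.8 CPM in WT and 10.8 to 17.3 CPM in KO at day 3, and those of macrophages and mature blood to 7.98 to 14.1 and 9.75 to 15.4 CPM. At day 0 the KO sums of these 3 lists lay above all WT sums. They were 245 to 330 CPM in KO and 91.3 to 179 CPM in WT for visceral and primitive endoderm, 55.4 to 94.4 and 29.9 to 38.8 CPM for mature endothelium, and 29.2 to 32.5 and 21.8 to 25.3 CPM for macrophages and mature blood. Of the genes tested, 1 of 12, 1 of 9 and 0 of 4 in these lists, in that order, were called higher in KO at day 0. None was called lower, where 9.56% of all tested genes were higher and 10.9% lower. The median log2 fold changes were -0.075, 0.605 and 0.453. The part of these cells in the levels of the 9 genes was not tested.

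For each of the 9 genes the 3 tested genes whose pattern was most like it were found by Pearson's r of log2(CPM + 0.5) over the 12 libraries, which share the differences between groups and WT day 3 replicate 3. They are given as a description. The closest to *Kdr* were *Kcnq5* (0.979), *Peg3* (0.969) and *Inka1* (0.966), those to *Flt1* were *Slc39a1* (0.969), *Prdm9* (0.969) and *Asph* (0.962), and those to *Lmo2* were *Gpc6* (0.99), *St3gal6* (0.99) and *Cnksr2* (0.986). *Etv2* was followed most closely by *Rwdd4a* (0.975), *Dchs1* (0.974) and *Mtss1l* (0.971), and *Pecam1* by *Hivep3* (0.982), *Shpk* (0.978) and *Ttc29* (0.976). The values for the genes high in WT day 3 replicate 3 were 0.945 for *Tal1* with *Grap2*, 0.94 with *Nfe2* and 0.933 with *Pcdhb16*, 0.971 for *Cdh5* with *Trpc6*, 0.968 with *Ntm* and 0.968 with *Apcdd1*, and 0.96 for *Gata2* with *Sh2d4b*, 0.937 with *Zhx3* and 0.934 with *S1pr1*. *Tek* had the weakest neighbours, *Prdm1* (0.896), *Uaca* (0.87) and *Synj2* (0.868).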

How the data were processed

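Gene expression was measured by poly(A) RNA-seq (single reads of 100 bases) in 12 libraries. The deposited files hold counts: the tools that the submitters' processing notes credit to the authors are cutadapt 1.3 for trimming, STAR 2.4.2a for alignment (GRCm38) and HTSeq 0.6.1 for counting per gene, with Ensembl 82 annotation per the methods. The strand setting of the counting is not given in the sources used here. The rows for reads not assigned to a gene stayed out of library sizes: reads aligned to more than 1 place were 36.5 to 44.1% of each table, reads on no feature 6.15 to 9.32% and ambiguous reads 0.705 to 0.75%. Libraries held 17455927 to 23910943 reads on genes, and intervals from counts would cover counting error only. No replicate pair agreed within sampling noise (chi-square per gene 10.6 to 50.8 over 12 pairs).

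Groups came from the labels. Symbols, positions and exon lengths came from GENCODE M21 on GRCm38. Counts were scaled by TMM and tested with edgeR 4.0.16 in R 4.3.3 (quasi-likelihood, all 12 samples, group plus replicate number, genes above 1 CPM in at least 1 sample, Benjamini-Hochberg over 15673 genes, threshold 0.05). Standard errors were derived from the fold change and its F statistic. Whether equal numbers pair samples was checked: over 13805 genes the deviations of WT and KO libraries of the same day and number correlated in all 6 pairs (0.294 to 0.657, mean 0.483), and those of different days did not (mean -0.034), so that the fit with a block within each day is given where it changes a call. On simulated counts for KO versus WT at day 3 over 15673 genes, 68 of 100 genes changed by 1 and 92 of 100 changed by 2 on the log2 scale were recovered, with 13 false calls. The simulated counts had no library set apart and no pairing within a day, and the changed genes had a mean above 1 CPM. These rates therefore need not hold for the real libraries. Alternatives were no block, a block within each day, DESeq2 1.42.0, limma-voom (limma 3.58.1), other filters, a minimum change, fitting only the compared samples and leaving out each library. Leaving out all libraries numbered 3 was added after seeing the data. Python 3.11.15 (numpy 2.4.6, pandas 2.3.3, matplotlib 3.10.9) wrote the tables and plots.

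The members and lists were chosen with earlier results of these data known. All 9 members are named. Of each pathway list, the examples are among the up to 3 called genes with the largest change in each direction, and for likeness the 3 genes with the highest correlation are named. *Pdgfra* and *Kit* were named for their position.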

Additional observations from a re-analysis of the deposited data

Results flagged for a closer look

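None of the 9 members met a rule for a closer look, and groups of 3 libraries are too small for a test of single outlying samples. In 24 genes of the pathway lists the KO effect differed between the days by the interaction term (adjusted p below 0.05 in edgeR), given here as the log2 fold change of KO over WT at day 3 minus that at day 0. In 22 of them the difference was below 0, and the 2 above 0 were *Pgf* (2.50) and *Tcf3* (0.63). Among all tested genes 7.34% were called below 0 and 8.21% above 0 by this term. Among the receptors and co-receptors the difference was -6.69 for *Nrp1*, -3.79 for *Acvrl1*, -2.99 for *Nrp2*, -2.06 for *Robo4*, -1.45 for *Kit* and -1.23 for *Flt4*. Among the transcription factors it was -5.82 for *Sox17*, -4.33 for *Foxc2*, -4.10 for *Sox7*, -3.43 for *Foxc1*, -3.41 for *Cdx1* and -2.45 for *Hhex*. Among the endothelial surface and junction genes it was -3.52 for *Esam*, -2.94 for *Nos3* and -2.51 for *Rasgrp3*. Among the mesoderm genes it was -7.18 for *Mesp1*, -4.88 for *Gata6*, -4.34 for *Pdgfra*, -4.28 for *Msx2*, -4.17 for *Bmp4*, -3.99 for *Gata4* and -3.88 for *Mesp2*. The calls below 0 were 6 of 11 receptors, 6 of 25 factors, 3 of 17 surface genes and 7 of 14 mesoderm genes. With the libraries numbered 3 left out they were 1 of 11, 3 of 19, 1 of 14 and 5 of 12, where 1.85% of tested genes were called below 0. No ligand or factor was called above 0 in that fit.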

How the results depend on the processing

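Of the members' results, the lower calls of *Kdr*, *Flt1*, *Etv2* and *Lmo2* in KO at day 3 and the WT changes of these genes and of *Pecam1* kept direction and call in every alternative run. Counting error is widest at few reads, and the fewest reads of a member in a library were 6 for *Cdh5*, 9 for *Gata2* and 10 for *Kdr*, in KO day 3 libraries, and 10 for *Tal1* and 11 for *Lmo2* in KO day 0 libraries. Whether depth set any call was not tested. The cause of the differences below was not tested.

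The fits with and without the replicate block differed in the pairing: without it 1 of the 9 was lower in KO at day 0 and 1 had a negative interaction, against 2 and 0 with it, and with the block within each day 3 were lower and 4 had one. DESeq2 gave 4 lower at day 0 and 3 negative interactions, limma-voom 1 and 1, and no filter on low counts 4 and 4. Fitting only the 6 samples compared gave 5 lower at day 0. With the libraries numbered 3 left out, none (0) was lower at day 0 and 3 fell in WT. With at least 10 counts in every sample 1 fell in KO. Leaving out 1 library gave 1 to 3 lower and 0 higher at day 0, 4 to 7 lower and 0 to 1 higher at day 3, 1 to 3 lower and 4 to 6 higher over the days in WT, 1 to 3 and 2 to 3 in KO, and 0 to 3 and 0 to 1 for the interaction. Over all tested genes, 10.9% were lower in KO at day 0, against 5.94% without WT day 0 replicate 3 and 3.12% with the libraries numbered 3 left out. At day 3 the 16.7% became 10.9% without WT day 3 replicate 3 and 7.67%.

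Directions that turned were of results that did not pass in all 12 libraries, here on the log2 scale. Leaving out 1 library gave a range at day 0 of -1.0 to 0.21 for *Tal1* (above 0 without WT day 0 replicate 2), -0.73 to 0.17 for *Gata2* (without KO day 0 replicate 3), -0.52 to 0.10 for *Pecam1* (without WT day 0 replicate 1 and, at 0.07, KO day 0 replicate 3) and -0.37 to 0.90 for *Cdh5* (below 0 without KO day 0 replicate 2 and, at -0.19, WT day 0 replicate 3). At day 3 the ranges were -0.91 to 1.14 for *Tek*, -2.12 to 0.10 for *Tal1* and -0.58 to 0.54 for *Pecam1*, each highest without WT day 3 replicate 3, and *Tek* was also at 0.12 without KO day 3 replicate 3. With the libraries numbered 3 left out *Tek* was at 1.08, *Tal1* at 0.10 and *Pecam1* at 0.23. Over the days, *Gata2* in WT ranged from -2.08 to 0.47 (above 0 without WT day 3 replicate 1, at 0.33, or 2) and was at 0.26 without the block. *Kdr* in KO ranged from -0.77 to 0.80 (below 0 without KO day 0 replicate 3, at -0.49, or KO day 3 replicate 1) and was at -0.15 in limma-voom and -0.033 in the 6 samples alone. The interaction ranged from -0.40 to 0.71 for *Pecam1* (above 0 without WT day 0 replicate 3, at 0.30, WT day 3 replicate 3, KO day 0 replicate 1, at 0.06, KO day 0 replicate 2, at 0.12, or KO day 3 replicate 1, at 0.01), from -0.23 to 0.49 for *Etv2* (below 0 without WT day 0 replicate 3 or, at -0.07, KO day 3 replicate 2) and from -1.71 to 0.48 for *Tal1* (above 0 without WT day 3 replicate 3). That of *Pecam1* was 0.053 in limma-voom and 0.47 with the libraries numbered 3 left out, and that of *Tal1* was 0.62 there.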
